A study of Mus musculus with 18 samples.

Results

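Transcripts of small heat shock proteins and inducible HSP70 were followed in myofibers of mice on 2 schedules of prednisone, a synthetic glucocorticoid. The members are 10 of the 43430 genes in the count table, chosen by name. They comprise the small heat shock proteins Hspb1, Hspb2, Hspb3, Hspb6, Hspb7, Hspb8 and Cryab, the inducible HSP70 genes Hspa1a and Hspa1b, and Hsph1 of the HSP110 group. All 10 passed the filter on low counts, with at least 122 counts in every library. The 18 libraries came from 18 C57BL/6 mice (the J substrain, C57BL/6J, per the study's methods), in 6 groups of 3 by sex and treatment, so each replicate is a separate animal. Mice were 10 weeks old at the start and were injected intraperitoneally for 4 weeks with vehicle (DMSO), with prednisone at 1 mg/kg every day, or with prednisone at 1 mg/kg once a week and vehicle in between. Per the study's methods, the last weekly dose was given 2 days before the mice were killed. The schedules thus differ in time since the last dose as well as in frequency. RNA was taken from the fraction of collagenase-treated quadriceps that a strainer held back, so myofibers were enriched but not purified.

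Small heat shock proteins are chaperones built around an alpha-crystallin domain. Without using ATP they hold unfolding proteins in a soluble form, and skeletal muscle, where contraction and heat strain the sarcomere, contains more kinds of them than most tissues. The HSP70 proteins take over such clients and refold them in cycles of ATP hydrolysis, and HSP110 proteins release the spent nucleotide. Heat shock factor HSF1 switches on the inducible members through heat shock elements, which are inverted repeats of the letters GAA. HSP70 and HSP90 also hold the glucocorticoid receptor in the state that binds hormone.

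The upstream sequences of Hspa1a, Hspa1b and Hspb1, which heat is known to induce, and of Hspb3, which fell on daily prednisone, are shown because they carry the letters by which heat shock factors and the glucocorticoid receptor are known to bind. RefSeq promoters (GRCm38.p6, the mm10 build) were matched for 8 of the 10 members, all except Hspb2 and Cryab. Both strands were searched in the 250 bases before each start for the paired heat shock units GAANNTTC and TTCNNGAA and for the receptor consensus ACANNNTGT. The 3 motifs read the same on either strand and do not overlap in the members. In the first 3 lines below, which cover the last 130 bases before the start, capitals mark GAANNTTC, and in the Hspb3 line, which covers 180 bases, they mark ACANNNTGT.
Hspa1a (chr17:34972157-34972286, minus strand): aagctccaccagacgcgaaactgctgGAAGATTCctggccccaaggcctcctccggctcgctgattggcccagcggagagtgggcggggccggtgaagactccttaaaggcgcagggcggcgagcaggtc
Hspa1b (chr17:34959239-34959368, minus strand): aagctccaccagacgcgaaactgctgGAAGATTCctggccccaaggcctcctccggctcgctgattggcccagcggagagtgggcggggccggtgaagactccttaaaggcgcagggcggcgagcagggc
Hspb1 (chr5:135887789-135887918, plus strand): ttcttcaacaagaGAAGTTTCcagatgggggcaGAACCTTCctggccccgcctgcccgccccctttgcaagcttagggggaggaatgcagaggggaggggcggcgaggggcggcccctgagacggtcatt
Hspb3 (chr13:113663677-113663856, minus strand): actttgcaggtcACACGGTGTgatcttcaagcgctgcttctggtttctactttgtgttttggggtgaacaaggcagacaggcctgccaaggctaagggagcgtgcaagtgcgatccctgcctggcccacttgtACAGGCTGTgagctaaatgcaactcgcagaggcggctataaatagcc

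The Hspa1a and Hspa1b genes lie 9951 bases apart, and their upstream sequences matched at 247 of 250 positions, with the same single unit, GAAGATTC, 104 to 97 bases before the start. Hspb1 carried 2 units, GAAGTTTC 117 to 110 bases and GAACCTTC 97 to 90 bases before the start. Hsph1, the HSP110 member, carried TTCTCGAA at 54 to 47 bases before the more downstream of its 2 listed starts. A unit of either form was found at least once in 12.8% of 32851 mouse promoters of the same length, and at least 2 were found in 1.46%. Hspb3 held 2 receptor motifs, ACACGGTGT 168 to 160 bases and ACAGGCTGT 47 to 39 bases before the start, and also a GAANNTTC unit upstream of the printed stretch. The receptor motif was found in 5.84% of promoters and in no other member with an entry. No unit or receptor motif was found for Hspb7 and Hspb8, and Hspb6 had 1 unit before the second of its 2 starts. These are matches of letters, and no binding was measured in these libraries.

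Each library held between 10506661 and 14686654 counts, of which the members took between 0.139% and 0.301%. Mitochondrially encoded genes took between 11.7% and 36.4%. All 8 myofibre markers were present in every library, and their summed level ran from 95038 to 171244 CPM (counts scaled to a common library size after TMM correction). Markers of other cells were also present. The 8 adipocyte markers summed to 308 to 568 CPM in male vehicle libraries, 649 to 1446 in male daily libraries, 650 to 735 in female vehicle libraries and 1103 to 3188 in female daily libraries. Weekly libraries had 658 to 1151 CPM in males and 862, 3402 and 5422 CPM in females, the last 2 being the highest of all. All 8 markers were detected, with Lep at 0 in at least 1 library. The female weekly libraries stood apart from each other. Replicate 1 had the lowest sum of 15 immediate early genes (1098 CPM, against 10495 CPM in replicate 2, the highest of all) and the highest sum of slow fibre markers (2312 CPM). In bulk RNA, fewer cells of a type and less RNA per cell cannot be told apart.

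In vehicle-treated muscle the 10 transcripts covered a wide range of levels. Per kilobase of exon, Cryab, the alpha-B crystallin that binds desmin and titin, had the highest median of the 6 vehicle libraries, at 390 CPM per kb (282 to 442). Hspb6, an actin-associated chaperone also called HSP20, reached 228 (210 to 255). Hspb8, the partner of the co-chaperone BAG3, reached 210 (164 to 306), and Hspb1, known as HSP27, 208 (167 to 268). The ranges of the last 3 overlapped, and that of Hspb8 also reached into that of Cryab, so their order is not fixed by these data. Hspb2, a binding partner of myotonic dystrophy protein kinase, followed at 75.6 CPM per kb (57.0 to 91.9), below every value of the first 4 members. The medians of the 5 remaining members lay between 16.6 and 32.3 CPM per kb, and their ranges overlapped, those of Hspb7, Hspa1a and Hspa1b also with that of Hspb2. These were Hspa1a, Hspa1b, Hsph1, Hspb3, whose protein assembles with that of Hspb2, and Hspb7, a filamin-binding chaperone of heart and muscle.

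Members differed in how much they varied between mice of the same group. The SD of log2 CPM within groups was 1.10 for Hspb7, more than that of 98.8% of the 13596 tested genes. It was 0.90 for Hspa1b and 0.86 for Hspa1a (97.4% and 96.9% of genes had a smaller SD), 0.55 for Hspb6 and 0.39 for Cryab. For Hspb1, Hspb8, Hsph1, Hspb2 and Hspb3 it lay between 0.22 and 0.30, around the median of all genes of 0.28.

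**Figure D1:**
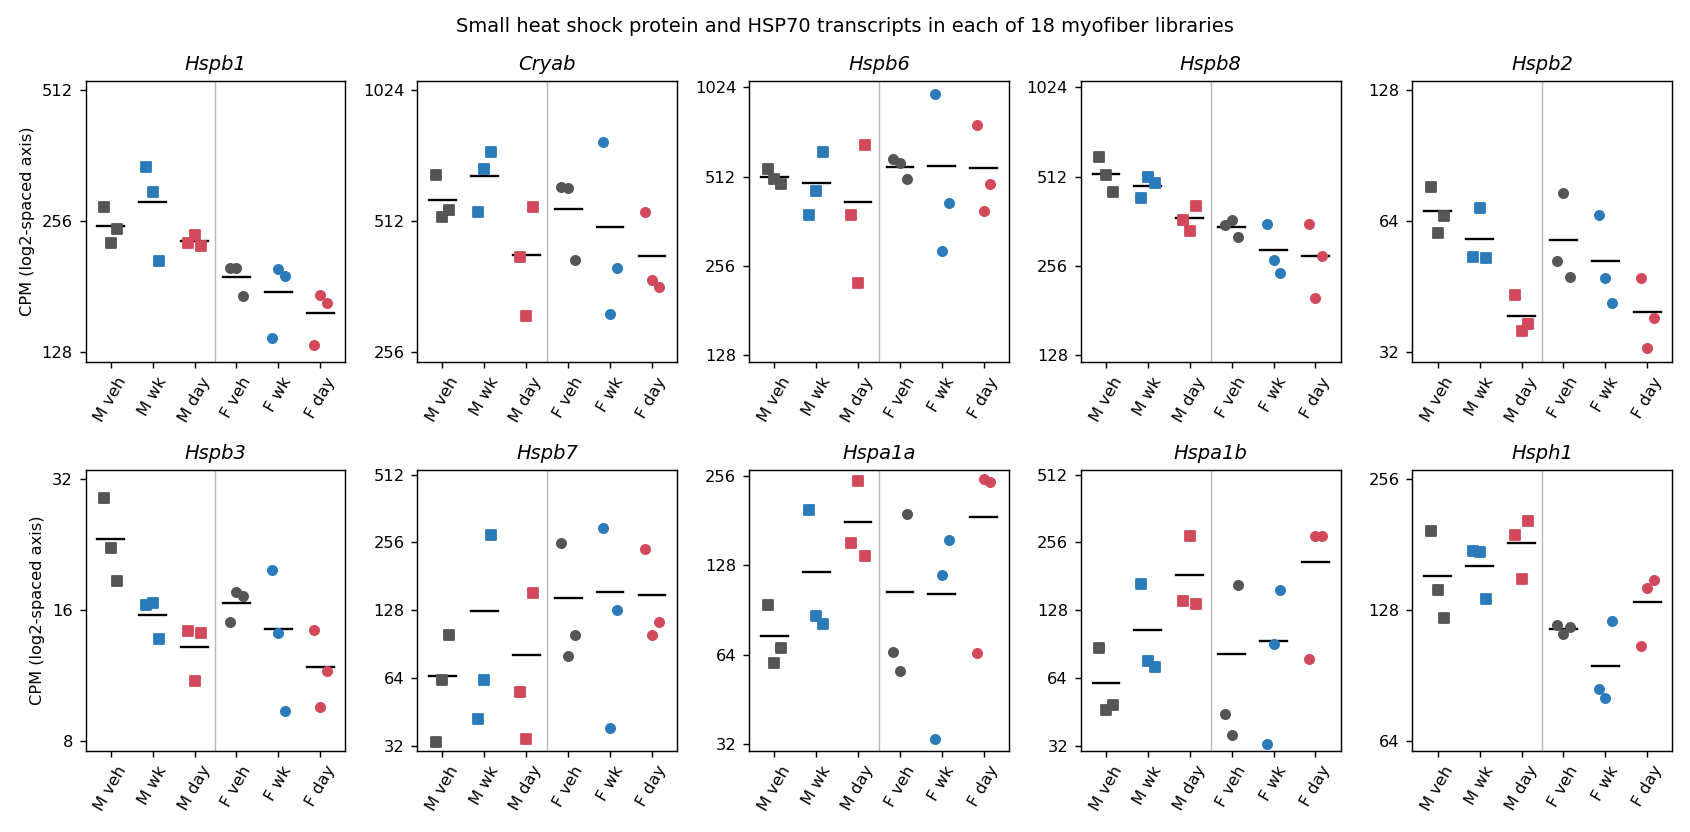
CPM of each member in each library (log2-spaced vertical axis, a panel per gene), in males (squares, M) and females (circles, F) on vehicle (veh, grey), weekly (wk, blue) and daily (day, red) prednisone, with bars at the group means. The daily libraries lie below the vehicle libraries of the same sex for Hspb2 and Hspb3, and Hspb7, Hspa1a and Hspa1b spread most within groups.

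The first comparison asked what 4 weeks of daily prednisone did to these transcripts. Hspb2 and Hspb3, a pair whose proteins form a joint complex in muscle, fell on daily prednisone, to 0.627 and 0.634 of the vehicle level over both sexes. Both fell in males by themselves, and no member passed the test in females by themselves. The other 5 small heat shock proteins did not pass the test in either sex. Hspa1a and Hspa1b were 2.08 and 2.78 times as high as in vehicle libraries over both sexes, but their spread between mice was large and neither passed. In males, 2 of the 10 members were called by edgeR at an adjusted p under 0.05, where 6.46% of all tested genes were. In females 0 were called (0.382% of all genes), with 1 member, Hspb2, under an unadjusted p of 0.05, beside 2354 of all 13596 genes. In the mean of both sexes 2 were called (15% of all genes), so the share of members called was close to that of all genes. The median log2 fold change of the members was -0.17, against 0.02 over all tested genes.

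Hspb2 (ENSMUSG00000038086, chromosome 9, 50751072 to 50752354, mm10) was measured at 76.6, 60.1 and 65.9 CPM in the 3 male vehicle libraries and at 43.4, 35.8 and 37.2 CPM in the 3 male daily libraries. In females it was at 51.9, 74.3 and 47.6 CPM on vehicle and 47.5, 32.8 and 38.4 CPM on daily prednisone. Male daily libraries all lay well below male vehicle libraries. Female groups also did not overlap, but the nearest libraries, at 47.5 and 47.6 CPM, were almost level. The log2 fold change was -0.80 ± 0.20 in males (SE, n = 3 per group, edgeR adjusted p = 0.0294), -0.55 ± 0.20 in females (adjusted p = 0.171) and -0.67 ± 0.14 over both (adjusted p = 0.00552). The difference between the sexes in this response was 0.25 ± 0.28 (adjusted p = 0.895).

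Hspb3 (ENSMUSG00000051456, chromosome 13, 113662896 to 113663676), whose upstream sequence with 2 receptor motifs is printed above, was measured at 29.0, 22.2 and 18.7 CPM in male vehicle libraries and at 14.3, 11 and 14.2 CPM in male daily libraries. Female vehicle libraries had 15, 17.6 and 17.2 CPM and female daily libraries 14.4, 9.56 and 11.6 CPM. The groups did not overlap in either sex, and the level in female vehicle libraries was already below that of all male vehicle libraries, a difference that was not called (edgeR adjusted p = 0.473). The log2 fold change was -0.83 ± 0.23 in males (edgeR adjusted p = 0.0425), -0.49 ± 0.23 in females (adjusted p = 0.296) and -0.66 ± 0.16 over both (adjusted p = 0.0137).

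The calls of Hspb2 and Hspb3 over both sexes held without any 1 of the 12 libraries compared, but in males alone both were lost without any 1 of the 6. Both calls ended when trends of each library with transcript length and GC content were removed. Over both sexes the log2 fold change was then -0.39 for Hspb2 (edgeR adjusted p = 0.0937) and -0.38 for Hspb3 (adjusted p = 0.153), in the same direction at a smaller size. Adipocyte markers moved with the treatment, with 7 of 8 called higher over both sexes. With their score held constant the values were -0.70 for Hspb2 (adjusted p = 0.158) and -0.54 for Hspb3 (adjusted p = 0.333). The 5 called fast fibre markers, of 8, were lower on daily prednisone as well. So were 4 of 5 blood markers (median log2 fold change -0.63), whose sum was 116 to 170 CPM in male vehicle, 104 to 122 in male daily, 96.5 to 175 in female vehicle and 68.0 to 88.6 CPM in female daily libraries. Mitochondrially encoded genes took 21.1% to 26.3% of counts in female vehicle and 11.7% to 18.3% in female daily libraries, with no overlap, and overlapped in males (16.95% to 32.6% and 17.7% to 24.5%). The part of the fast fibre, blood and mitochondrial values in the result was not tested.

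Hspb8 (ENSMUSG00000041548, chromosome 5, 116408491 to 116422864), which with BAG3 sends damaged filamin to autophagy, was measured at 597, 520 and 454 CPM in male vehicle libraries and 367, 336 and 408 CPM in male daily libraries. Female vehicle libraries had 351, 367 and 320 CPM and female daily libraries 354, 200 and 276 CPM. The male groups did not overlap, and the female groups did. Over both sexes the log2 fold change was -0.41 ± 0.14 (edgeR adjusted p = 0.0521), on the edge of the threshold. Several other settings put it past, among them DESeq2 (adjusted p = 0.0214) and limma-voom (adjusted p = 0.0467). Of the 12 fits that left out 1 library, 2 called it (edgeR adjusted p from 0.0118 to 0.125). It was not called with length and GC trends removed or with the adipocyte score held constant.

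Cryab (ENSMUSG00000032060, chromosome 9, 50752758 to 50756633) starts 404 bases from Hspb2 and is read in the opposite direction. It was measured at 653, 525 and 544 CPM in male vehicle libraries and 423, 310 and 553 CPM in male daily libraries, and at 614, 611 and 418 CPM against 538, 375 and 362 CPM in females. Groups overlapped in both sexes, and the log2 fold change over both was -0.39 ± 0.21 (edgeR adjusted p = 0.224). The ratio of Hspb2 to Cryab counts ranged from 0.0673 to 0.151 over the 18 libraries and overlapped between vehicle and daily groups in both sexes.

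Hspb1, Hspb6 and Hspb7 did not pass the test on daily prednisone. Hspb1 (ENSMUSG00000004951, chromosome 5, 135887919 to 135889563), which caps and protects actin filaments, had 250 ± 24.2 CPM in male vehicle and 230 ± 6.38 CPM in male daily libraries (mean ± SD, n = 3), and 191 ± 16.2 and 157 ± 21.7 CPM in females. Its log2 fold change over both sexes was -0.20 ± 0.13 (edgeR adjusted p = 0.324). Hspb6 (ENSMUSG00000036854, chromosome 7, 30552178 to 30555443) had 510 ± 31.2 and 420 ± 218 CPM in males and 552 ± 44.6 and 547 ± 193 CPM in females. Its daily libraries spread from 224 to 763 CPM, on both sides of the vehicle range, and the log2 fold change over both sexes was -0.15 ± 0.29 (edgeR adjusted p = 0.783). Hspb7 (ENSMUSG00000006221, chromosome 4, 141420779 to 141425311) ranged from 33.3 to 255 CPM among vehicle and from 34.1 to 238 CPM among daily libraries, a change of 0.18 ± 0.59 (adjusted p = 0.881). Hspb6 overlaps the oppositely oriented genes Lin37, by 3 bases, and Proser3, by 119 bases, but these had at most 110 counts where Hspb6 had at least 3011.

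Hspa1a (ENSMUSG00000091971, chromosome 17, 34969190 to 34972156) and Hspa1b (ENSMUSG00000090877, chromosome 17, 34956436 to 34959238) encode almost the same HSP70 protein. Of all 50-base windows of the Hspa1a transcript, 58.8% also occur in Hspa1b, and 62.3% the other way round, so reads cannot be fully assigned and the counts of each gene are uncertain. Gm20481, which overlaps Hspa1a on the other strand, had 0 counts in every library. Hspa1a was measured at 94.5, 60.1 and 67.5 CPM in male vehicle libraries and 152, 247 and 138 CPM in male daily libraries. In females it was at 65.5, 56.3 and 191 CPM on vehicle and 64.7, 250 and 245 CPM on daily prednisone. The male groups did not overlap. The female groups did, because vehicle replicate 3 was high and daily replicate 1 was low.

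The same libraries stood out for Hspa1b, which was at 86.9, 46.2 and 48.4 CPM in male vehicle and 141, 274 and 136 CPM in male daily libraries. Female vehicle libraries had 44.4, 35.6 and 166 CPM and female daily libraries 77.7, 274 and 274 CPM. Over both sexes the log2 fold change was 1.06 ± 0.44 for Hspa1a (edgeR adjusted p = 0.126) and 1.47 ± 0.49 for Hspa1b (adjusted p = 0.0559). With the counts of both genes summed, which does not depend on how counted reads were split between them, it was 1.26 ± 0.46 (adjusted p = 0.0796). Leaving out 1 library moved the value for Hspa1b over both sexes between 1.27 and 2.01, and it was called in 2 of these 12 fits. DESeq2 called Hspa1b (adjusted p = 0.0238) but not Hspa1a (adjusted p = 0.0825).

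Immediate early genes, which rise within minutes of stress, varied alongside. The sum of the 15 genes ranged from 3184 to 6546 CPM in male vehicle, 5643 to 7823 in male daily, 5494 to 8317 in female vehicle and 2410 to 8429 CPM in female daily libraries, with female daily replicate 1 the lowest of these. Of the 15, 0 were called in the daily comparison over both sexes by edgeR, with 11 higher and a median log2 fold change of 0.21. With their score held constant, the log2 fold changes over both sexes were 1.36 for Hspa1b (edgeR adjusted p = 0.0242), 0.93 for Hspa1a (adjusted p = 0.0345), -0.42 for Hspb8 (adjusted p = 0.00137), -0.40 for Cryab, -0.67 for Hspb2 and -0.66 for Hspb3, and these 6 members were called. Of all tested genes, 3283 were called in this fit, against 2033 in the main fit. The fit with the score was added after the data were seen.

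Hsph1 (ENSMUSG00000029657, chromosome 5, 149614287 to 149636376), the HSP110 partner of HSP70, had 153 ± 36.4 CPM in male vehicle and 182 ± 28.3 CPM in male daily libraries, and 116 ± 3.07 and 134 ± 23.7 CPM in females. Groups overlapped in both sexes, and the log2 fold change over both was 0.22 ± 0.14 (edgeR adjusted p = 0.312). In all, 5 members had daily groups that did not overlap with vehicle in males, against 33.4% of all tested genes, of which Hspa1a and Hspa1b lay above and Hspb2, Hspb3 and Hspb8 below. In females, 2 members did not overlap (Hspb2 and Hspb3, both below), against 23.1% of all genes.

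**Figure D2:**
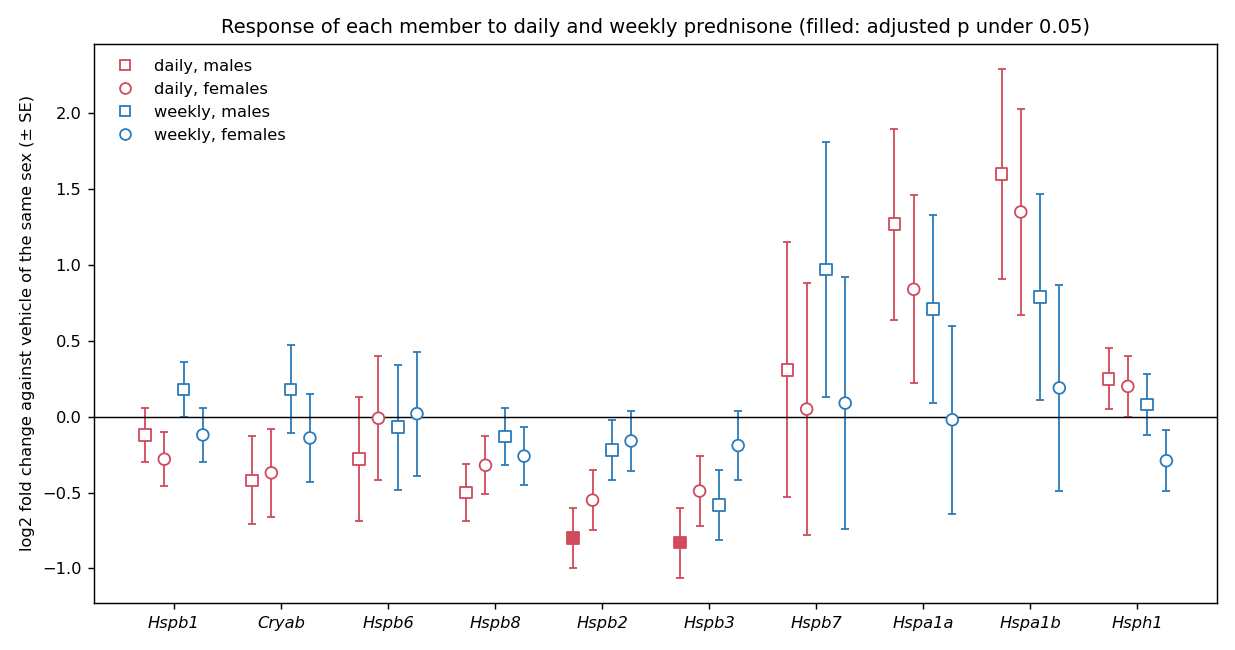
Log2 fold change of each member against vehicle of the same sex (vertical axis, bars show ± SE), for daily (red) and weekly (blue) prednisone in males (squares) and females (circles), filled where the edgeR adjusted p was under 0.05. Only Hspb2 and Hspb3 in daily males are filled, at -0.80 and -0.83, and the widest bars belong to Hspb7, Hspa1b and Hspa1a.

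The split between Hspa1a and Hspa1b was also compared, a comparison chosen after the values were seen. The ratio of Hspa1b counts to Hspa1a counts was 0.920, 0.768 and 0.718 in male vehicle libraries and 0.925, 1.11 and 0.990 in male daily libraries. In females it was 0.678, 0.633 and 0.870 on vehicle and 1.20, 1.10 and 1.12 on daily prednisone. Every daily library lay above every vehicle library of the same sex, although in males the nearest, at 0.920 and 0.925, were almost level. Averaged over the sexes the ratio was 1.41 times as high on daily prednisone as on vehicle (two-sided exact permutation test with treatment labels permuted inside each sex, p = 0.005, the lowest value possible with 400 relabellings, and 0.0075 after Benjamini-Hochberg adjustment over 3 tests). Leaving out 1 library moved this between 1.37 and 1.48. With all daily libraries above all vehicle libraries in each sex, the permutation test must give its lowest p. The comparison was chosen after this separation was seen, so the p-value restates the separation and adds no support. The adjustment also does not cover other ratios that could have been chosen.

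Weekly libraries lay in between. Their ratios were 0.857, 0.877 and 0.878 in males and 0.982, 0.760 and 1.01 in females. The ratio was 1.20 times as high on daily as on weekly prednisone (same exact permutation test, p = 0.005, adjusted 0.0075). Every daily library lay above every weekly library of the same sex, so this p-value was likewise bound to be the lowest possible. Against vehicle the ratio was 1.18 times as high on weekly prednisone (p = 0.08, exact permutation test, adjusted 0.08). The summed level of the pair moved with the ratio in part. In 4 of the 6 groups the library with the highest sum also had the highest ratio (male vehicle at 181 CPM, female vehicle at 357 CPM, male daily at 521 CPM and female weekly at 314 CPM). In the other two it had the lowest ratio, 0.857 at 363 CPM in male weekly replicate 1 and 1.10 at 524 CPM in female daily replicate 2. The sums ran from 106 to 181 CPM in male vehicle and 274 to 521 CPM in male daily libraries, and from 91.9 to 357 and 142 to 524 CPM in females. The part of the summed level in the ratio was not tested. How the authors' counting treated reads that fit both genes is not stated, and its part in the ratio was not tested.

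**Figure D3:**
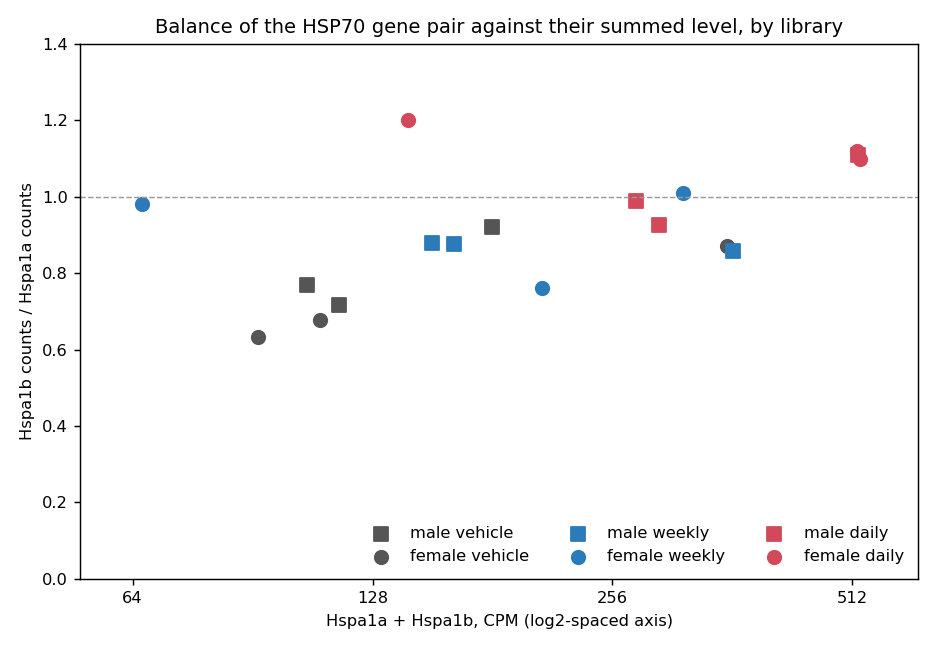
Counts of Hspa1b divided by counts of Hspa1a (vertical axis, from 0) against the summed CPM of both genes (log2-spaced horizontal axis), a point per library, squares for males and circles for females. Daily libraries (red) sit between 0.925 and 1.20 and vehicle libraries (grey) between 0.633 and 0.920. Their summed levels overlap in females (142 to 524 and 91.9 to 357 CPM) but not in males (274 to 521 and 106 to 181 CPM).

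The second comparison asked whether weekly prednisone, given at the same dose but less often, moved the same transcripts. Weekly mice were also further from their last dose than daily mice, and the effects of frequency and of this delay cannot be told apart. No member passed the test: 0 of 10 were called in males, in females or over both sexes, where 0.0% of all tested genes were called by edgeR in each. Adipocyte markers were higher in weekly libraries as well, 8 of 8 over both sexes with a median log2 fold change of 3.13 and 0 called, as were slow fibre markers, 9 of 9 with a median of 3.88 and 0 called, and their part in the weekly values was not tested. The slow fibre sum was uneven, at 2312, 233 and 194 CPM in female weekly libraries against 115 to 194 on vehicle. In male weekly libraries it was 227, 165 and 574 CPM against 112 to 189 on vehicle. Of the 9 slow fibre markers, 5 were at 0 in some library. At an unadjusted p under 0.05 there was 1 member in males and over both sexes (Hspb3) and 0 in females, beside 777, 1492 and 1083 genes in all. Hspb3 was at 16.4, 16.6 and 13.7 CPM in male weekly libraries, all below the 18.7 to 29.0 CPM of male vehicle libraries. Its log2 fold change in males was -0.58 ± 0.23 (edgeR adjusted p = 0.849). In female weekly libraries it was at 19.8, 14.2 and 9.40 CPM, on both sides of the vehicle range. Hspb3 was the 1 member whose weekly and vehicle groups did not overlap in males, against 16.7% of all genes, and there were 0 in females, against 8.07%.

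Hspb2 had 53.1, 68.5 and 52.8 CPM in male weekly libraries, against 60.1 to 76.6 CPM on vehicle. Female weekly libraries had 66.3, 47.5 and 41.5 CPM, against 47.6 to 74.3 CPM on vehicle. The groups overlapped in both sexes, with the lower weekly libraries of each sex below the vehicle range. The log2 fold change of Hspb2 over both sexes was -0.19 ± 0.14 (edgeR adjusted p = 0.657). Hspa1a was at 196, 86.4 and 81.0 CPM in male weekly and 33.2, 119 and 156 CPM in female weekly libraries, a change of 0.34 ± 0.44 over both (adjusted p = 0.821). Female weekly replicate 1 had the lowest Hspa1a and Hspa1b of all libraries, and the highest Cryab (780 CPM), Hspb6 (969 CPM) and Hspb7 (295 CPM). Replicate 2 of the same group had 313 CPM of Cryab, 288 of Hspb6 and 38.5 of Hspb7. Leaving out 1 library at a time moved the weekly log2 fold change in females between -0.65 and 0.31 for Hspb6, between -0.80 and 0.77 for Hspb7, and between -0.42 and 1.21 for Hspa1b, with none called in any of these fits.

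Daily and weekly prednisone were also set against each other, with frequency and time since the last dose differing together. Hspb2 was lower on the daily schedule over both sexes, by a log2 fold change of -0.48 ± 0.14 (edgeR adjusted p = 0.0456). It was the 1 member called, where 8.17% of all genes were. In males by themselves and in females by themselves 0 members were called, where 0.0% of genes were. The values were -0.58 ± 0.20 in males (edgeR adjusted p = 0.230) and -0.39 ± 0.20 in females (adjusted p = 0.330). This call was lost in 10 of 12 fits that left out 1 library, and was kept only without female daily replicate 1 or female weekly replicate 3. With the trends on length and GC content removed the value was -0.16 ± 0.13 (adjusted p = 0.621). A fit with the replicate number as a block for the female daily and weekly libraries was also made. This pairing was read from the deviations of these same libraries, and the labels do not give it. The value was then -0.48 ± 0.12 (edgeR adjusted p = 0.0143), and with the trends removed as well -0.16 ± 0.11 (adjusted p = 0.455). That block raised the number of all genes called from 1111 to 1811 over both sexes and from 0 to 522 in females, of which 0 were members. As the block was chosen from the same data, its smaller SE and added calls cannot serve as support. Hsph1 was higher on the daily schedule by 0.33 ± 0.14 (adjusted p = 0.159). Both comparisons with vehicle share their vehicle libraries, so their values are not independent.

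Sex was compared in the vehicle groups and in the size of each response. Female vehicle libraries had lower Hspb8 than male ones, 346 ± 23.8 against 524 ± 71.9 CPM (mean ± SD, n = 3). These groups did not overlap, and neither did those of Hspb1, Hspb3 and Hsph1, but the share of all genes without overlap between the sexes was not counted. The log2 difference was -0.60 ± 0.19 for Hspb8 (edgeR adjusted p = 0.226). It was -0.49 ± 0.23 for Hspb3 and -0.39 ± 0.18 for Hspb1. None of the 10 members was called, where 0.765% of all genes were. At an unadjusted p under 0.05 there were 3 members, beside 1418 of all 13596 genes. For the sex difference in the response, 0 members were called for daily and 0 for weekly prednisone, where 0.0% of genes were called in each. The least precise value was that of Hspb7, whose response to daily prednisone differed by -0.26 ± 1.18 between females and males.

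Across libraries the members fell into patterns, some of which were also seen within groups. Cryab and Hspb6 deviated together from their group means (Pearson r = 0.94 over 18 libraries), as did Hspa1a and Hspa1b (r = 0.98), whereas Cryab and Hspa1a deviated in opposite directions (r = -0.83). These are descriptions over libraries that share group and depth. The values of r that follow, for sums of immediate early genes and cell markers, were taken on log2 CPM with group differences left in. The sum of immediate early genes moved with Hspa1a (r = 0.72) and against Hspb6 (r = -0.78) and Cryab (r = -0.72). This sum was low in female weekly replicate 1 (1098 CPM) and female daily replicate 1 (2410 CPM), the libraries with the highest Hspb6. Markers of some other cells moved against Hspb6 to a like degree, with r of -0.82 for smooth muscle without Des (desmin, which myofibers also express), -0.74 for fibroblasts, -0.70 for satellite cells and -0.67 for endothelium, and against Cryab with -0.52, -0.60, -0.60 and -0.49. With Hspa1a the same sums had r of 0.59, 0.60, 0.45 and 0.40. Schwann cell markers also moved against Hspb6 (r = -0.58) and Cryab (r = -0.50). Not all other cells did so, as adipocyte, macrophage and blood markers had r of 0.06, -0.14 and -0.16 with Hspb6. With Cryab these had r of -0.23, -0.39 and 0.20. Female weekly replicate 1 and female daily replicate 1 had the lowest sums of smooth muscle markers without Des (276 and 328 CPM) and of fibroblast markers (809 and 758 CPM). The part of these cells in the pattern was not tested.

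**Figure D4:**
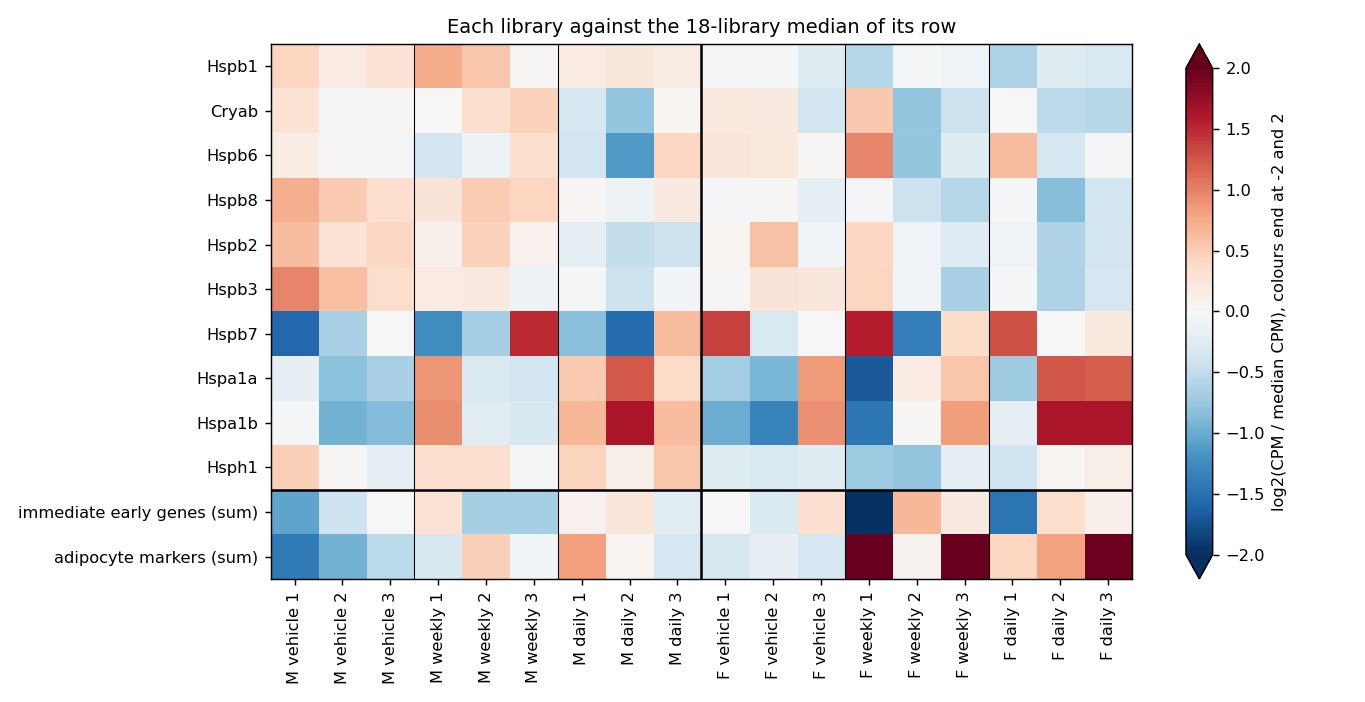
Log2 of CPM over the median of the 18 libraries (colour, red higher and blue lower, ending at -2 and 2) for each member and for the sums of immediate early genes and adipocyte markers (rows), in each library (columns, M male and F female). Female weekly replicate 1 is red for Cryab, Hspb6 and Hspb7 and blue for Hspa1a, Hspa1b and the immediate early genes, and male daily replicate 2 shows the opposite for Hspb6, Hspb7 and the HSP70 pair.

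For each member the 3 genes with the most similar log2 CPM over the 18 libraries were taken. Hspa1a was followed most closely by Hspa1b (r = 0.97), by Dnajb1 (r = 0.94), the HSP40 co-chaperone that delivers clients to HSP70, and by Dnaja1 (r = 0.92). Hspa1b was followed by Hspa1a (r = 0.97), the clock gene Per2 (r = 0.90) and Dnajb1 (r = 0.89). Hspb7 was followed by Lmcd1 (r = 0.96), Ankrd2 (r = 0.94) and Csrp3 (r = 0.93), the last 2 of which encode stretch-responsive proteins of the sarcomere. Hspb2 was followed by Rbx1, Ufc1 and Pfdn1 (each r = 0.98), genes of ubiquitin-like modification and of the prefoldin chaperone.

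Hspb3 was followed by Cacng6 (r = 0.95), a calcium channel subunit, Dexi (r = 0.94) and Ubac1 (r = 0.93), and Hspb8 by Mllt11 (r = 0.96), Fam131a (r = 0.95) and the proteasome gene Psmd8 (r = 0.93). Cryab was followed by Slc25a4 (r = 0.93), the ATP/ADP carrier of muscle mitochondria, Suclg1 (r = 0.93) of the citric acid cycle, and Mrpl16 (r = 0.92) of the mitochondrial ribosome. Hspb6 was followed by 2310002L09Rik (r = 0.94), Chchd3 (r = 0.92) and Vegfb (r = 0.91). Hspb1 was followed by Ttyh1 (r = 0.94), P4ha1 (r = 0.92) and Odc1 (r = 0.87), and Hsph1 by Csnk1a1 (r = 0.90), Prkacb (r = 0.87) and Hs2st1 (r = 0.86).

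Other chaperone genes were counted in the daily comparison over both sexes, where 15% of all genes were called. Of the 15 other heat-inducible chaperones, 1 rose and 1 fell. Dnajb4, an HSP40 of muscle, rose by 0.45 ± 0.14 on the log2 scale (edgeR adjusted p = 0.0338), and Hspe1, the mitochondrial co-chaperonin, fell by 0.42 with an SE of 0.12 (adjusted p = 0.0293). Dnajb1 (1.32 ± 0.50, adjusted p = 0.0928) and Hsp90aa1, the inducible HSP90 (1.10 ± 0.37, adjusted p = 0.0557), were of the size of the HSP70 pair and did not pass. The median of this list was 0.04. Hspa8, the constitutive HSP70 (1169 CPM on average), was at -0.04 ± 0.12 (adjusted p = 0.872), and Bag3 at 0.04 ± 0.11 (adjusted p = 0.854).

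Of 9 tested genes among the other HSP70 and HSP110 genes, 1 rose, Hspa13 of the endoplasmic reticulum (0.42, edgeR adjusted p = 0.0324). Among 15 DNAJ genes 1 rose, which was Dnajb4. Of the 14 endoplasmic reticulum chaperones 1 rose, the HSP70 co-chaperone Dnajb9 (0.91 ± 0.24, edgeR adjusted p = 0.0176). Among the 10 chaperonins 2 fell, Hspe1 and the cytosolic ring subunit Cct5 (-0.29, adjusted p = 0.0377), and 9 of 10 had values below 0. The nucleotide exchange factors, 7 in number, held 1 that fell, Hspbp1 (-0.42, adjusted p = 0.0387). Hsbp1, which binds heat shock factor trimers, fell (-0.36, adjusted p = 0.0226), whereas Hsf1, Hsf2 and Hsf4 were not called. Of the 4 genes listed by name as other small heat shock proteins, only Hspb11 passed the filter, and it fell (-0.65 ± 0.18, adjusted p = 0.0211). Its level was low, at 2.61 CPM on average (1.57 to 4.58). Of the 14 genes of HSP90 and its co-chaperones, and of the 7 genes of the BAG3 complex and its clients, 0 were called.

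**Figure D5:**
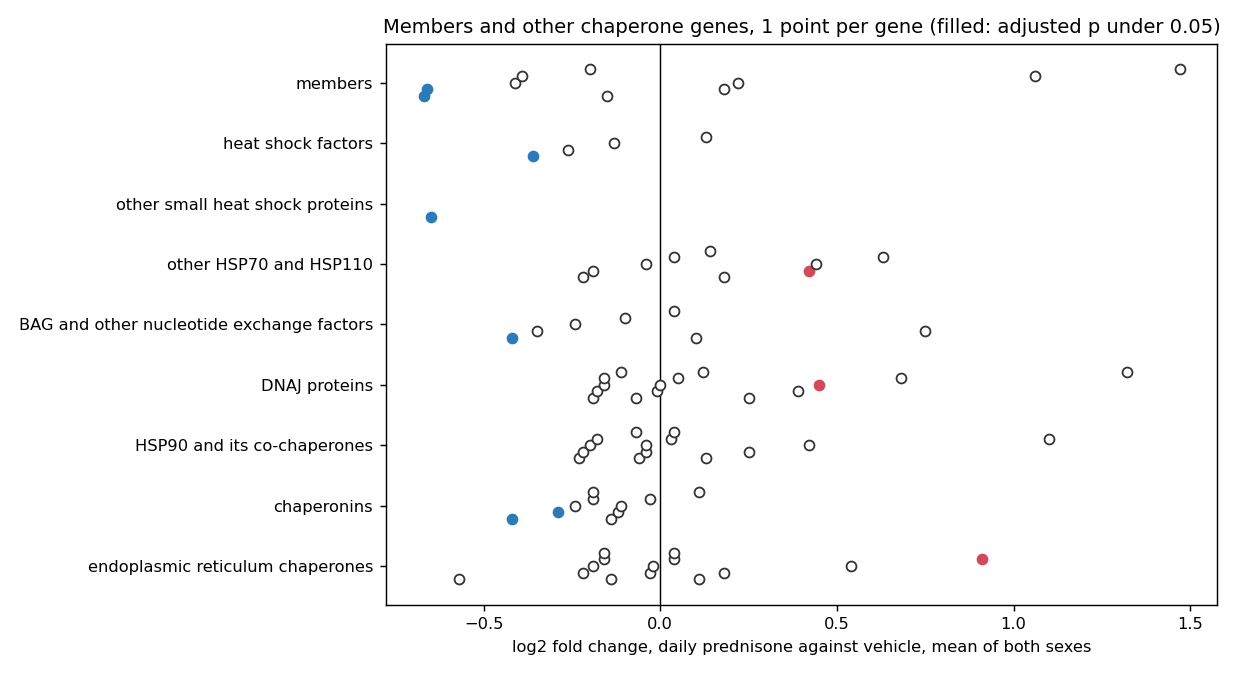
Log2 fold change on daily prednisone against vehicle, mean of both sexes (horizontal axis), for the members and for the other chaperone genes by list (rows), a point per gene, filled red where it rose and blue where it fell at an edgeR adjusted p under 0.05. The members span from -0.67 for Hspb2 to 1.47 for Hspa1b, and most points of the other lists lie between -0.5 and 0.5.

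For weekly prednisone over both sexes, 0 genes of these lists were called by edgeR. Between the daily and weekly schedules 1 was called, Fkbp5, the receptor co-chaperone and glucocorticoid target, which was higher on the daily schedule by 1.03 ± 0.30 (edgeR adjusted p = 0.0460). Against vehicle, Fkbp5 was not called on either schedule. It was at 0.42 ± 0.30 on daily (edgeR adjusted p = 0.378) and -0.61 ± 0.30 on weekly prednisone (adjusted p = 0.47). Between the daily and weekly schedules, Hspe1 stood at -0.40 ± 0.12 (adjusted p = 0.0501), and Bag3 at 0.28 ± 0.11 (adjusted p = 0.125).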

How the data were processed

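PolyA RNA of 18 libraries was measured, with groups and replicate numbers taken from the labels. The deposited values are whole-number counts of reads, given per gene and library, that the authors obtained with TopHat2 2.1.0, Bowtie2 2.2.6 and HTSeq on mm10, per the submitters' processing notes. The annotation release, the strand setting and the handling of reads that fit several genes are not given in the sources used here. Every per-library column of the table was used.

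Counts were analysed with edgeR 4.0.16 in R 4.3.3. Genes passing filterByExpr (minimum count 10) were scaled with TMM factors and fitted over all 18 libraries with 6 group means and a robust quasi-likelihood model. Calls were made at an adjusted p under 0.05, with Benjamini-Hochberg adjustment across the 13596 genes tested. The biological coefficient of variation was 0.224. Standard errors were derived from the fold change and the F statistic, and log2 CPM had a prior count of 2. Exon lengths came from the GENCODE mouse release 21 annotation, which gave the same span for 8 of the 10 members, and promoter sequences from RefSeq. The steps were tested on simulated data.

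The members and the gene and marker lists were chosen with earlier results of these data known. Named genes are the members, every listed chaperone gene called in a described comparison, up to 4 of the most abundant genes of a list, and the 3 genes most like each member. Dnajb1 and Hsp90aa1 were named after their values were seen.

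Same-numbered libraries deviated together from their group means in female daily and weekly libraries (r = 0.501, 0.483 and 0.439), a pairing read from the data, and in no other pair of groups were all 3 values over 0.1. The alternatives comprised other tests (DESeq2 1.42.0, limma-voom from limma 3.58.1), scaling by DESeq2 size factors, no filter, a stricter filter (mean of at least 5 CPM), a fit restricted to the groups compared, a block for replicate number, the HSP70 pair summed, and leaving out each library. Removal of length and GC trends, adipocyte and immediate early gene scores as covariates, and the female block were added after the data were seen.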

Additional observations from a re-analysis of the deposited data

How the results depend on the processing

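Of 2368 member values under alternatives, 2305 kept their side of the threshold, 34 lost a call and 29 gained one. The main fit called only 2 members in males on daily prednisone, 2 over both sexes and 1 between daily and weekly. Most of the 2305 were therefore values called in neither fit, and their number does not show that the calls are stable. Of called values 0 changed sign, while 171 values that were called in neither fit had the other sign. Of 10 members, the number called in males on daily prednisone was 2, but 4 with only the groups compared and 0 with length and GC trends removed, with the adipocyte score held constant, or without any 1 library (0 to 0). In females on daily prednisone it was 0, but 4 with the immediate early gene score held constant. Over both sexes it was 2 (beside 2033 of all genes), but 4 with DESeq2 (beside 2354), with the stricter filter (beside 2086) and with only the groups compared (beside 2386), 5 with the replicate block within each sex (beside 1880), 6 with the immediate early gene score held constant (beside 3283), and 0 with length and GC trends removed or with the adipocyte score held constant. Leaving out 1 library gave 2 to 5 (4 without female vehicle replicate 3, beside 1900 of all genes, and 5 without female daily replicate 1, beside 2475). Between daily and weekly prednisone over both sexes it was 1, but 0 with the replicate block within each sex, with only the groups compared, and with length and GC trends removed, with or without the replicate block of the female daily and weekly libraries, and 0 to 1 without 1 library. Between female and male vehicle it was 0, but 1 with the immediate early gene score held constant. The replicate block changed no other call of a count. The causes were not tested.

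Over all genes, the daily count in males was 878, but 1383 with DESeq2, 1530 with only the groups compared, 1621 with the immediate early gene score, 62 with the trends removed, 25 with the adipocyte score and 92 to 414 without 1 library. In females it was 52, but 530 with DESeq2, 177 with the stricter filter, 29 without a filter, 1076 with the immediate early gene score, 0 with the trends removed, the adipocyte score, the replicate block or only the groups compared, and 0 to 126 without 1 library. Over both it was 2033, but 684 with the trends removed, 3283 with the immediate early gene score, 0 with the adipocyte score, and 1340 without female vehicle replicate 2. For weekly prednisone it was 0, but 152 in females and 183 over both with DESeq2, 136 over both with the immediate early gene score, and up to 253 in females and 174 over both without 1 library (female weekly replicate 2). For daily against weekly over both it was 1111, but 535 with only the groups compared, 100 with the trends removed, 2516 with the immediate early gene score, 1811 with the replicate block of the female daily and weekly libraries, 457 with that block and the trends removed, and 568 to 1122 without 1 library (568 without female daily replicate 2, 586 without male daily replicate 3, 636 without female daily replicate 3, 638 without male weekly replicate 2 and 675 without male daily replicate 1). In females it was 0, but 546 with DESeq2, 191 with the stricter filter, 23 without a filter, 2 with limma-voom, 25 with the adipocyte score, 1308 with the immediate early gene score, 522 with that block, 10 with that block and the trends removed, and 0 to 312 without 1 library (312 without female weekly replicate 1). In males it was 0, but 225 with DESeq2, 429 with the immediate early gene score, 10 with only the groups compared, 8 without a filter and 1 with the replicate block within each sex, and 0 to 1 without 1 library. Between the sexes on vehicle it was 104, but 235 with DESeq2, 219 with the immediate early gene score and as few as 43 without 1 library. Hspb3 had as few as 122 counts in a library, the lowest depth behind any member value here.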
